A study of Homo sapiens with 9 samples.

Results

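22Rv1, a human prostate carcinoma line from a tumour that had relapsed after castration, was measured in 2 control states that differ in transfection and drug selection. Scramble control cells (SCR) were transfected by lipofection with a plasmid coding for a scramble shRNA and kept in neomycin, and wildtype cells (WT) were not transfected. Expression was read on the Affymetrix Human Transcriptome Array 2.0. The comparison takes the 6 SCR and WT arrays of the 9 in the series and all 67528 transcripts of the value table. The other 3 arrays hold cells transfected with an shRNA against SSX2 (KD) under the same selection, and they show whether a transcript that differed between the controls lay at the SCR or at the WT level in KD. All cells grew in the same serum-containing medium and were harvested at confluence. The 3 arrays of a group are labelled technical replicates, and p-values here reflect the scatter of such replicates alone. The labels do not say whether SCR was 1 clone or a pool. With 1 transfected line, what transfection, selection and the history of that line each changed cannot be told apart.

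A scramble shRNA has a sequence meant to match no transcript, so that it loads the RNA interference machinery without silencing a chosen gene. Lipofection brings foreign DNA into the cell, where DNA and RNA sensors are known to be able to switch on interferon and inflammatory genes. Neomycin-type aminoglycosides bind ribosomes, and only cells that carry and express the resistance gene go on growing. The lines that emerge descend from the few cells that took up the plasmid, and cells of a tumour line are known to differ among themselves.

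The deposited values are log2 intensities, so a difference of 1 is a 2-fold change. Array medians lay between 5.41 and 5.5, and the 23 antigenomic probe sets, made to bind nothing human, had medians between 3.60 and 3.81. Levels under about 5 are therefore near the background, where the array understates fold changes. RNA integrity numbers averaged 2.5 per the labels, a value that stands for degraded RNA. Across transcripts, which are not independent, SCR arrays correlated among themselves with r = 0.997, WT arrays with 0.996 to 0.997, and SCR with WT arrays with 0.995 to 0.996. KD arrays stood apart, at 0.956 to 0.961 with the others. SSX2, read together with its near-identical copy SSX2B, differed between the controls by 0.04 and 0.02 in its 2 transcripts (95% intervals -0.10 to 0.17 and -0.09 to 0.13). Its SCR and WT arrays overlapped, and it lay at 5.05 and 5.13 in KD against 11.67 to 11.94 in the controls.

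Few transcripts separated the controls. With limma over all 9 arrays and a Bonferroni-adjusted p under 0.05, 95 transcripts (0.141% of those tested) were higher in SCR and 50 (0.074%) were lower, 0.215% together. They were led by the coreceptor NRP1 on the higher side and by the secreted C1QL4, the kinase CAMK4 and the receptors EPHA7, KIT and GRIN3A on the lower side. For comparison, 4.08% of transcripts rose and 4.68% fell in KD against SCR. The median difference over all transcripts was -0.0017, 95% of them lay between -0.24 and 0.27 and 98.96% within 0.5 of 0. Among those that passed, the median difference was 0.93 for the higher and -1.05 for the lower ones, and the smallest were 0.57 and -0.52. Of those that passed, 42 higher and 26 lower transcripts differed by at least 2-fold, and 0 and 5 by at least 5-fold. In all 145, the SCR arrays did not overlap the WT arrays, which was also so in 18.6% of all transcripts. Benjamini-Hochberg adjustment gave 747 higher (1.11%) and 479 lower (0.709%), and an unadjusted p under 0.05 was reached by 4216 and 3750. Leaving out 1 array left 89, 82 and 87 called transcripts (without SCR 1, 2 and 3), 80, 92 and 95 (without WT 1, 2 and 3) and 108 to 115 (without a KD array). Of the 145, 74 passed without any 1 of the 9 arrays and 71 lost their call without at least 1. No difference changed sign, and none of them moved by more than 0.121. The methods' ANOVA with Bonferroni correction, on the 6 arrays, passed 8 transcripts, 6 of them among the 145.

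**Figure D1:**
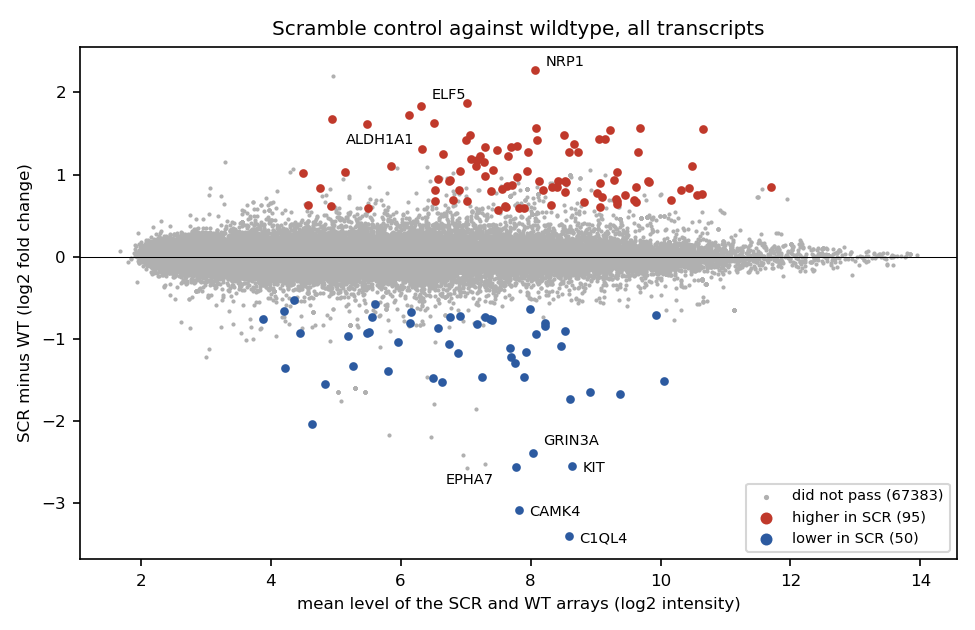
Difference between SCR and WT (log2 fold change, vertical) against the mean level of the 6 arrays (log2 intensity, horizontal) for 67528 transcripts, with the 95 higher ones in red, the 50 lower ones in blue and the rest in grey. The lower side reaches farther, with C1QL4 at -3.40 against NRP1 at 2.27, and most transcripts lie within 0.5 of 0.

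Size alone did not decide the calls. As many as 16 transcripts were higher and 37 lower by at least 2-fold without passing, 52 of them with no overlap of arrays, and their median SE was 0.26 against 0.06 among the called ones. Groups of these transcripts share identical values, such as several at -1.60 and several at 1.00. The counts and the median SE thus include repeats of the same values. Among the transcripts that did not pass, 3 had 1 gene symbol. KLK2, a kallikrein protease of the prostate that androgen raises, differed by 1.05 (adjusted p = 0.11 from limma), the signalling inhibitor ERRFI1 by 1.00 (adjusted p = 0.11) and the pseudogene MEIS3P1 by -1.03 (adjusted p = 1). Standard deviations inside SCR and WT were 0.04 and 0.07 for KLK2 and 0.03 and 0.03 for ERRFI1. Their SEs were 0.10 and 0.09 and come from the fit over all 9 arrays, so the spread of the KD arrays enters them. Of the called transcripts, 67 higher and 40 lower ones carried 1 gene symbol, 4 and 1 carried several and 24 and 9 none. Counted by gene, with the brightest transcript standing for each of 22465 genes, 62 were higher (0.276%) and 39 lower (0.174%).

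The largest falls were in genes bright in WT. C1QL4, a secreted protein of the C1q-related family, measured 10.42, 10.38 and 10.06 in WT and 6.75, 6.94 and 6.97 in SCR. The groups were far apart, and WT 3 was lowest of the WT arrays. The difference of -3.40 is a 10.5-fold fall (SE 0.10, adjusted p = 2.1e-06) by limma with Bonferroni adjustment, as are the values that follow. CAMK4, a calcium/calmodulin-dependent kinase that phosphorylates the transcription factor CREB, gave 9.29, 9.40 and 9.39 in WT and 6.26, 6.31 and 6.29 in SCR. It fell by 3.08, or 8.43-fold (SE 0.06, adjusted p = 4.0e-08), with little spread inside either group. In bulk RNA, fewer cells that express a gene and less RNA per cell cannot be told apart.

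EPHA7, an Eph receptor that binds membrane-bound ephrins, and KIT, the receptor for stem cell factor, are both receptor tyrosine kinases. EPHA7 stood at 9.02, 9.14 and 9.03 in WT and 6.48, 6.54 and 6.48 in SCR. It fell 5.9-fold, by 2.56 on the log2 scale (SE 0.05, adjusted p = 9.9e-08). KIT stood at 9.85, 10.04 and 9.85 in WT and 7.31, 7.42 and 7.35 in SCR, with WT 2 highest, and fell 5.87-fold, by 2.55 (SE 0.07, adjusted p = 9.1e-07). In both genes the 3 SCR arrays lay well above background, so the transcripts were reduced in SCR and not lost. GRIN3A, a subunit of NMDA-type glutamate receptors, measured 9.24, 9.26 and 9.20 in WT and 6.89, 6.83 and 6.80 in SCR and fell 5.24-fold, by 2.39 (SE 0.06, adjusted p = 3.0e-07). No array of one group overlapped the other in any of these genes, which the rule for naming genes required. C1QL4, CAMK4, EPHA7, KIT and GRIN3A were the 5 transcripts past 5-fold among those that passed. Without passing, TC0Y000284.hg.1, TC0Y000283.hg.1 and TC10002568.hg.1 fell by 2.57, 2.52 and 2.41, with SEs of 0.66, 0.69 and 0.49. Under the methods' ANOVA with Bonferroni correction C1QL4 and KIT lost their calls, and CAMK4, EPHA7 and GRIN3A kept them.

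The promoters of the 3 largest falls with a RefSeq entry are shown because CpG content sets promoter classes apart. RefSeq (GRCh38.p14) lists 300 bases, 250 before to 50 after the start, for each gene, with each CG in capitals. Which start the cells used was not measured.
CAMK4, chr5:111223333-111223632, plus strand: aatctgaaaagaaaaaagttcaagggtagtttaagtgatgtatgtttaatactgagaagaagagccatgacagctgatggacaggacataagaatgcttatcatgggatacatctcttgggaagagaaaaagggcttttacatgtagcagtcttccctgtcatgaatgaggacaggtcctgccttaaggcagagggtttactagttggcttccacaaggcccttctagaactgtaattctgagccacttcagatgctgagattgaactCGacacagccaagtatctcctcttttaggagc
EPHA7, chr6:93419510-93419809, minus strand: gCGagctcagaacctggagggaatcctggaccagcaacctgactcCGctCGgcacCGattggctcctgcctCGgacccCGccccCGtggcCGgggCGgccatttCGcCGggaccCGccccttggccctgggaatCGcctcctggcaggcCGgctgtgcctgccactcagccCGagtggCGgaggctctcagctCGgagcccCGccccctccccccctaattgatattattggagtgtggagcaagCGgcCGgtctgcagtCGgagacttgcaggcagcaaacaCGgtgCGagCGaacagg
KIT, chr4:54657707-54658006, plus strand: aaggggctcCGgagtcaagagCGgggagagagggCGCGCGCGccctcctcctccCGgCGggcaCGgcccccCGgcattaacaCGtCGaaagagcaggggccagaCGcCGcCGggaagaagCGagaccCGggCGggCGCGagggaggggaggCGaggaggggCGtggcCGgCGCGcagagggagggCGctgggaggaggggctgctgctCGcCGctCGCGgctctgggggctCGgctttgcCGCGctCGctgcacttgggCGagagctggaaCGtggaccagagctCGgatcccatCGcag
CAMK4 has 1 CG in this window, EPHA7 24 and KIT 38. Over 27305 promoters the median was 14, and 9.69% held as many CG as KIT or more. The GC box GGGCGG, searched on both strands, occurs 4 times in EPHA7, 1 time in KIT and 0 times in CAMK4, and 44.6% of all promoters hold it.

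Further falls of named genes lay between 1.16 and 1.73 on the log2 scale. At the cell surface, ENTPD2, which hydrolyses extracellular ATP, went from 9.55, 9.37 and 9.51 in WT to 7.81, 7.74 and 7.69 in SCR, a fall of 1.73 (SE 0.07, adjusted p = 8.9e-05). PTPRZ1, a receptor-type tyrosine phosphatase that binds pleiotrophin, went from 7.35, 7.55 and 7.31 to 5.82, 5.92 and 5.88, a fall of 1.53 (SE 0.07, adjusted p = 2.4e-04). The WT arrays were higher than every SCR array in both, which the rule for naming genes required. SCARB2, the lysosomal membrane protein that carries glucocerebrosidase to the lysosome, was the brightest of these genes, with 10.75, 10.89 and 10.80 in WT and 9.22, 9.34 and 9.33 in SCR (a fall of 1.52, adjusted p = 1.8e-05). ALB, serum albumin, fell by 1.47 and EMP1, an epithelial membrane protein, by 1.46. KCNA4, a voltage-gated potassium channel, fell by 1.39 (adjusted p = 0.0052). These 3 had SEs of 0.05, 0.07 and 0.09, and KCNA4 lost its call without SCR 3, WT 1 or WT 2. The transcription factor SOX5 fell by 1.22, HEG1, a membrane protein of cell junctions, by 1.17 and CPLX2, a complexin of vesicle release, by 1.16. HEG1 lost its call without any 1 of the SCR or WT arrays. The uncharacterised LOC400940 fell by 1.33, to 4.60, close to background.

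On the higher side, NRP1, a coreceptor for class 3 semaphorins and VEGF, measured 6.97, 6.93 and 6.90 in WT and 9.20, 9.19 and 9.22 in SCR. The spread inside a group was far smaller than the gap. Its rise of 2.27, or 4.83-fold (SE 0.04, adjusted p = 6.7e-08), was the largest, and 1 transcript that passed rose past 4-fold. TC04002698.hg.1, without a symbol, rose by 2.20 and did not pass (SE 0.22). ELF5, an ETS transcription factor of secretory epithelium, rose from 5.43, 5.33 and 5.41 to 7.18, 7.22 and 7.31, by 1.84 (SE 0.07, adjusted p = 2.2e-05). LRRC7, a scaffold protein of the postsynaptic density, rose from 4.18, 4.11 and 4.04 to 5.79, 5.80 and 5.76, by 1.68 (SE 0.05, adjusted p = 2.3e-06). The WT arrays of LRRC7 lay close to background, which makes its change a lower bound. ALDH1A1, a retinal dehydrogenase that forms retinoic acid, rose from 5.72, 5.69 and 5.68 to 7.25, 7.36 and 7.37, by 1.63 (SE 0.06, adjusted p = 2.0e-05). SCR and WT did not overlap in any of the 4 genes, which the rule for naming genes required.

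The same window is given for the largest rises with a RefSeq promoter entry, again with CG in capitals, beside those of the falls above.
ELF5, chr11:34511675-34511974, minus strand: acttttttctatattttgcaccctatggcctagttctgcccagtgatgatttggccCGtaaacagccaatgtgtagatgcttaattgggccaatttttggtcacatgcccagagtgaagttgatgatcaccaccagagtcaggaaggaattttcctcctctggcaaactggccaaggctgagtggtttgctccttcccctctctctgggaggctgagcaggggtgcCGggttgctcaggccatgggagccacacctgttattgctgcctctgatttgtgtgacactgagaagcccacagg
LRRC7, chr1:69567672-69567971, plus strand: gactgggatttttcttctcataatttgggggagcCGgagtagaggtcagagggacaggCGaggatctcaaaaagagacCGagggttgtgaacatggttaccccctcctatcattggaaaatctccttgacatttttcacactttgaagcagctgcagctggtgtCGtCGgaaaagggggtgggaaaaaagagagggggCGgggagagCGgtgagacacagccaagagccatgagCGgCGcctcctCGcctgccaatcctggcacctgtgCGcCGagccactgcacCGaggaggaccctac
ALDH1A1, chr9:72953004-72953303, minus strand: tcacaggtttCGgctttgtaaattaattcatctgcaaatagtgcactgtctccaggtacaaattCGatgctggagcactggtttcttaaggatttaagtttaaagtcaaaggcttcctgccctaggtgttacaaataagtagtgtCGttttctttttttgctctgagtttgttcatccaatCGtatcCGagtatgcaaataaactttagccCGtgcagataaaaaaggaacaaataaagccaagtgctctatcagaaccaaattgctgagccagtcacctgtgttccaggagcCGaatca
They hold 2, 13 and 7 CG, so 88.5%, 51.5% and 62.5% of all promoters have as many or more. Over the genes that passed, 45 of 62 higher and 34 of 40 lower ones had an entry. The median number of CG was 15 in the higher and 24 in the lower genes, beside 14 in all promoters. The GC box occurred in 46.7% and 61.8%. These counts describe the letters of the window and were not tested.

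BEX1, a small adaptor protein of neurotrophin signalling, rose from 7.36, 7.29 and 7.25 in WT to 8.88, 8.81 and 8.94 in SCR, by 1.57 (SE 0.10, adjusted p = 0.0021). BMP2, a bone morphogenetic protein, rose from 8.95, 8.87 and 8.88 to 10.49, 10.42 and 10.50, by 1.57 (SE 0.11, adjusted p = 0.0065). CNTFR, the ligand-binding chain of the ciliary neurotrophic factor receptor, rose from 9.94, 9.86 and 9.82 to 11.49, 11.41 and 11.38, by 1.55 (SE 0.07, adjusted p = 1.0e-04). All 3 were already well above background in WT, and BMP2 lost its call without any 1 of the SCR or WT arrays. The standard deviation of BMP2 was 0.26 in KD, which shares the fit, and 0.04 in SCR and in WT. With only the compared groups in the fit BMP2 kept its call, and under the methods' ANOVA with Bonferroni correction BMP2 lost it. The simple-epithelium keratins KRT19 and KRT7 rose by 1.54 and 1.28, from means of 8.46 and 9.01 to 10.00 and 10.29. IGF1, insulin-like growth factor 1, rose by 1.33 (adjusted p = 7.4e-04). AKR1C2, an aldo-keto reductase that inactivates dihydrotestosterone, rose by 1.31 (adjusted p = 0.0054), and its close relatives AKR1C1 and AKR1C3 may share its probe signal. Its call was lost without SCR 1, SCR 2, WT 2 or WT 3. MAN1A1, a Golgi mannosidase of N-glycan trimming, rose by 1.30, PRUNE2 by 1.28 and KHDRBS2, an RNA-binding protein of splicing, by 1.28. The arrays of these genes did not overlap between the groups, as in every called transcript.

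HLA-DQB1, the beta chain of an MHC class II molecule, accounts for 6 of the 95 higher transcripts. The array carries it 7 times, and the 6 are copies on alternate versions of the MHC region by their identifiers, so they are not separate genes. The one with the largest rise measured 7.25, 7.06 and 7.05 in WT and 8.49, 8.42 and 8.51 in SCR, with WT 1 highest of the WT arrays. The 6 rose by 1.04 to 1.35, and the seventh differed by 0.52 without passing. HLA-DQ genes vary between people and have close relatives, and their probes can share signal.

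**Figure D2:**
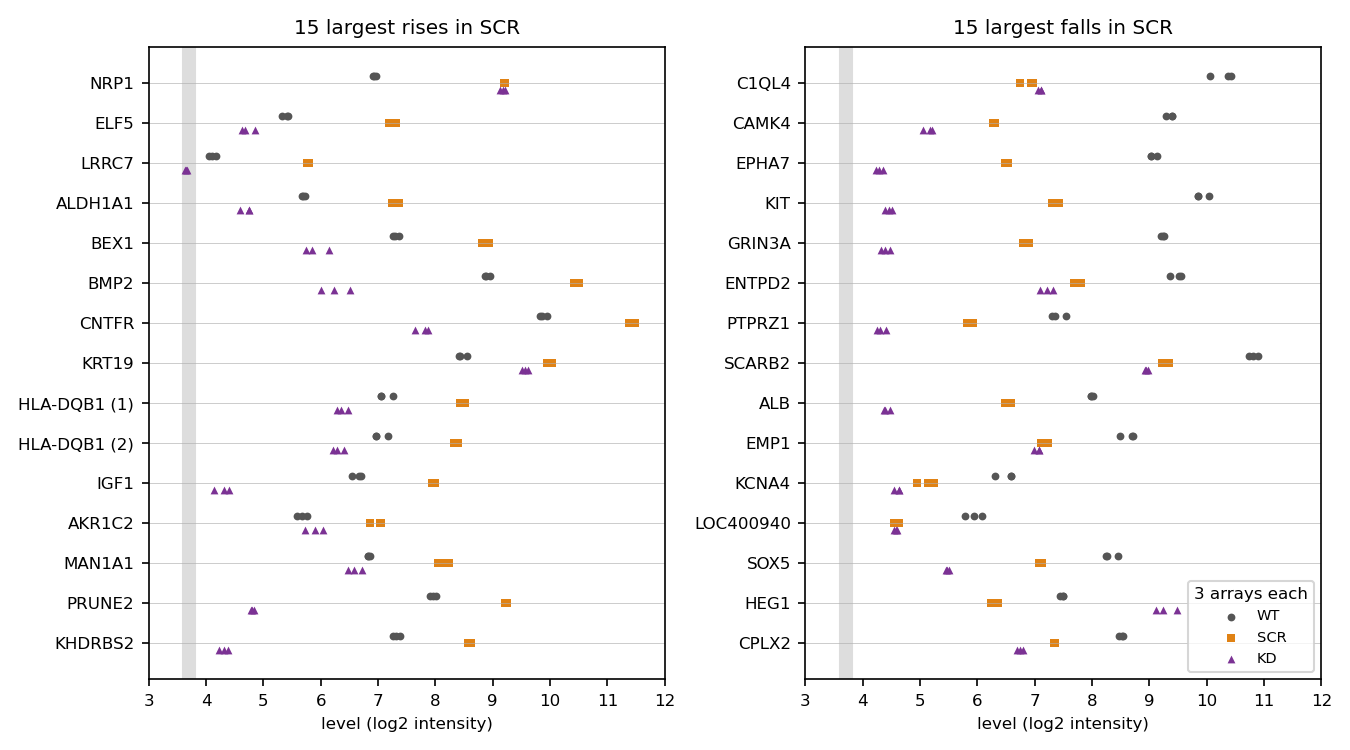
Levels of the 15 largest rises (left) and 15 largest falls (right) in SCR among transcripts with 1 symbol, each point 1 array (log2 intensity), with WT as grey circles, SCR as orange squares and KD as purple triangles. The grey band marks the range of array background medians, 3.60 to 3.81. SCR and WT points are separate in every row, which the choice of rows required. KD lies close to the SCR level for NRP1 and C1QL4 and below both controls for KIT, EPHA7 and GRIN3A.

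Among the other genes that passed, those below were picked for known roles after their values were seen. In growth factor signalling, IGF1R, the receptor for IGF1, rose by 0.70 (adjusted p = 0.016 from limma), from 9.00, 9.01 and 8.85 to 9.69, 9.66 and 9.63. IRS2, an adaptor of the insulin and IGF1 receptors, fell by 0.71 (adjusted p = 0.0044), from 10.31, 10.29 and 10.24 to 9.58, 9.52 and 9.61. Ligand and receptor were thus higher and this adaptor lower, each with no overlap, as in every called transcript. PTCH1, the Hedgehog receptor, rose by 1.03 and MERTK, a receptor tyrosine kinase for the clearance of dead cells, fell by 1.11. NPR3, the clearance receptor for natriuretic peptides, fell by 0.73. In antigen presentation, B2M, the light chain of MHC class I, rose from 10.25, 10.28 and 10.23 to 11.05, 11.04 and 10.96, by 0.76 (adjusted p = 0.0029), and IFI30, a lysosomal thiol reductase of antigen processing, rose by 0.69. VTCN1, the inhibitory ligand B7-H4, fell by 0.81. PTCH1, MERTK and B2M passed without any 1 array. IFI30 lost its call without any 1 of the 9 arrays and IGF1R without any but WT 3. IRS2 lost it without SCR 1, SCR 2, WT 1 or WT 2, NPR3 without SCR 1, SCR 2, WT 1 or WT 3, and VTCN1 without KD 1, WT 1 or any SCR array.

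The adhesion and matrix genes picked stood on both sides. The cadherins CDH24, CDH17 and CDH7 and the protocadherin PCDH17 rose by 0.93, 0.83, 0.68 and 1.10, though WT levels of CDH17 (4.34) lay close to background. The laminin chain LAMC1 rose by 0.84 and the matricellular proteins SMOC1 and SPOCK2 by 0.84 and 0.60. The matrix proteins TNC and VCAN fell by 0.81 and 0.74. CDH7 and SPOCK2 lost their calls without any 1 of the 9 arrays, PCDH17 without any but KD 3 and SCR 1, SMOC1 without SCR 1 or any WT array, and TNC without WT 1, WT 2 or any SCR array. Of transcription factors, SOX9, a regulator of epithelial progenitors, fell by 1.09, from 9.06, 8.94 and 9.03 to 7.90, 7.92 and 7.92 (adjusted p = 3.9e-04), and FOSL2, an AP-1 subunit, fell by 0.75 (adjusted p = 0.029). Both FOSL2 and PLPP1 lost their calls without any 1 of the SCR or WT arrays. FOSL2 lost it also without KD 2 or when arrays were centred on their medians. With only the compared groups in the fit PLPP1 kept its call and FOSL2 lost it. The lipid phosphatases PLPP3 and PLPP1 rose by 1.27 and 0.77. Of proteins known from prostate cells, STEAP1, a metalloreductase-like surface protein, rose by 0.66 and TMEFF2, a transmembrane protein, fell by 0.90. Transcripts assigned to FOLH1, which codes for prostate-specific membrane antigen, and to its near-identical copy FOLH1B rose by 0.92 and 0.91 and cannot be told apart. STEAP1 lost its call without any 1 of the 9 arrays.

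Of transcripts that passed without a symbol, the 3 largest rises were TC09002461.hg.1 (1.87), TC02003726.hg.1 (1.73) and TC02004744.hg.1 (1.62). The 3 largest falls that passed were TC05002562.hg.1 (-2.04), TC05002756.hg.1 (-1.65) and TC02003007.hg.1 (-1.55). In TC05002562.hg.1 and TC02003007.hg.1 the SCR means of 3.61 and 4.07 were at or close to background, and in TC05002756.hg.1 the SCR mean was 8.09. TC02003726.hg.1 lost its call without any array but KD 2, and TC02004744.hg.1 without any but KD 1 and SCR 1.

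KD cells went through the same transfection and selection, so their level shows which SCR changes were found in a second transfected line. Comparisons of KD with SCR and with WT share arrays with SCR against WT, and the counts are a description. Against WT, 4.13% of all transcripts rose and 4.49% fell in KD. Of the 145 transcripts, 33 passed in KD against WT but not against SCR and were counted with SCR. Another 33 passed against SCR but not against WT and were counted with WT, 76 passed against both, and 3 against neither. These counts follow the calls and do not show equal levels. The 95% interval of the KD minus SCR difference left out 0 in 6 of 10 higher and 12 of 23 lower transcripts counted with SCR. That of KD minus WT left out 0 in 23 of 29 higher and 3 of 4 lower transcripts counted with WT. Taking the sides apart, among the 50 lower transcripts, 23 (46%) were counted with SCR, 17 (34%) fell further in KD, 4 were counted with WT, and 3 were above WT in KD. Of the 95 higher ones, 10 (10.5%) were counted with SCR and 9 (9.47%) rose further, while 29 (30.5%) were counted with WT and 47 (49.5%) were below WT. By means alone, KD was nearer SCR in 41 of the 50 lower and 19 of the 95 higher transcripts.

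The KD arrays differ from both controls in far more than the shRNA target. Of 23 measured markers of prostate lines without the androgen receptor, 20 were higher in KD than in SCR, with a median of 3.60. Of 12 luminal markers 7 were lower, with a median of -1.11. Of all transcripts, 4.08% rose and 4.68% fell in KD against SCR. The paper reports several members of the first list among its KD rises on these arrays. Both lists were written with earlier results known, so their counts in KD are no separate evidence. The mean level of the first list was 9.57 to 9.61 in KD, 6.44 to 6.45 in SCR and 6.35 to 6.44 in WT arrays. Its part in where KD lay was not tested. KD means were under 5, close to background, in 42 of the 145 transcripts, where a level below both controls cannot be ranked further. Without the KD arrays in the fit, 49 higher and 31 lower transcripts passed between SCR and WT, 80 in all, of which 76 were among the 145.

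Genes counted with SCR held the largest change on each side. Some genes in this and the following KD paragraphs lie outside the naming rule and were picked after their values were seen. NRP1 measured 9.13, 9.21 and 9.18 in KD, overlapping the SCR arrays, with a KD minus SCR difference of -0.03 (95% interval -0.13 to 0.07) and a KD minus WT difference of 2.24. C1QL4 measured 7.11, 7.05 and 7.11 in KD, with differences of 0.20 from SCR (95% interval -0.01 to 0.42) and -3.19 from WT. The KD arrays of C1QL4 lay slightly above all SCR arrays. KRT7 measured 10.28, 10.24 and 10.19 in KD, -0.05 from SCR (95% interval -0.18 to 0.07). PLPP3, MAGED1 and IGF1R differed between KD and SCR by -0.07, 0.08 and 0.16, and AKAP12 and MAP1B by 0.26 and 0.39. KRT19 did not pass against SCR but its KD minus SCR difference was -0.44 (95% interval -0.57 to -0.31), so it was between the controls. On the lower side, MERTK, SLC28A2, a nucleoside transporter, FSHB and APBA3 differed by 0.04, 0.03, -0.03 and 0.07 from SCR, and EMP1 and SOX9 by -0.12 and -0.19. FSHB was at background in both transfected lines, with means of 3.51 and 3.48. The transcript shared by RABGEF1 and KCTD7 had means of 10.22 in WT against 8.54 and 8.61 in SCR and KD. ENTPD2 (-0.54), KCNA4 (-0.51) and ABCA12 (-0.48) were counted with SCR although intervals of the difference, -0.70 to -0.37, -0.72 to -0.30 and -0.58 to -0.38, leave out 0. The SCR fall of ABCA12 was 0.52, so KD was about as far below SCR as SCR below WT. Without 1 array, AKAP12 lost its call (SCR 2, SCR 3, WT 1 or WT 2), as did FSHB (SCR 1, SCR 2 or any WT array), APBA3 (WT 1, WT 2 or any SCR array) and ABCA12 (any of the 9).

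Changes that went further in KD were mostly falls. KIT measured 4.39, 4.46 and 4.52 in KD, a difference of -2.90 from SCR and -5.46 from WT. EPHA7 measured 4.28, 4.35 and 4.24 and GRIN3A 4.31, 4.48 and 4.39 in KD, with differences of -2.21 and -2.45 from SCR. The 3 genes were thus stepwise lower from WT over SCR to KD, where they came close to background. CAMK4 had a KD mean of 5.14, -1.14 from SCR. PTPRZ1, ALB, SOX5, TMEFF2 and IRS2 fell further as well, with KD minus SCR differences of -1.55, -2.12, -1.62, -3.40 and -1.41. Of the rises, 5 named genes went further. The LIM-domain protein AJUBA rose by a further 1.00, LIX1L by 2.85, and TFPI, the inhibitor of the tissue factor pathway, by 3.86, from 4.60, 4.73 and 4.58 in WT and 5.56, 5.72 and 5.72 in SCR to 9.68, 9.46 and 9.44 in KD. The sulfhydryl oxidase QSOX1 and the kinase STK39 rose by a further 0.69 and 0.62. Between SCR and WT, QSOX1 and STK39 lost their calls without any 1 of the 9 arrays, LIX1L without any but KD 1, TFPI without KD 2 or any SCR or WT array, and AJUBA without WT 2.

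Among rises that did not recur in KD, ELF5 measured 4.62, 4.85 and 4.69 in KD, a difference of -0.67 from WT that did not pass (95% interval -0.83 to -0.52). LRRC7 measured 3.64, 3.63 and 3.67, at background. NDNF, a secreted neurotrophic factor, CDH24, KCTD5, PFKFB2, an enzyme that controls glycolysis, and B2M were close to WT, with KD minus WT differences of -0.04, -0.01, -0.04, -0.05 and 0.08. For B2M the 95% interval was -0.03 to 0.18. Many transcripts higher in SCR were below WT in KD. BMP2 measured 6.0, 6.24 and 6.52 in KD, -2.65 from WT, and PRUNE2, KHDRBS2 and IGF1 had KD minus WT differences of -3.15, -3.02 and -2.35. ALDH1A1 measured 4.75, 4.59 and 4.75 in KD, -1.0 from WT, and CNTFR had a difference of -2.10. The farthest were the FOLH1 and FOLH1B transcripts, at -5.34 and -5.40 from WT and close to background in KD. The falls counted with WT were NPR3, FOSL2, TNC and the chaperone DNAJA4, whose KD minus WT differences were 0.25, 0.68, 0.26 and -0.09. The interval held 0 for DNAJA4 alone (-0.20 to 0.03). FOSL2 measured 8.54, 8.41 and 8.34 in KD and 7.81, 7.74 and 7.70 in WT, so KD was above WT by nearly as much as SCR was below it, without passing (95% interval 0.54 to 0.82). HEG1 and TMEFF1 were 1.81 and 0.74 above WT in KD. SEMA3A, RGS5 and CYP2R1, a vitamin D hydroxylase, passed against neither control in KD. Between SCR and WT, KCTD5 lost its call without any array but KD 1, RGS5 without any but KD 2, PFKFB2 without any 1 of the SCR or WT arrays and CYP2R1 without SCR 2 or SCR 3.

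Genes of the responses that transfection or an aminoglycoside could set off were examined in 10 lists with 180 measured genes, covering innate sensing and interferon, p53, unfolded protein and heat shock responses, cholesterol and fatty acid synthesis, lysosomes, mitochondrial and cytosolic translation, RNA interference and NF-kB. By limma with Bonferroni adjustment 0 were higher and 0 lower, where 0.276% and 0.174% of all genes were. The lists do not hold every gene of these kinds and were written with earlier results of these data known. Outside them, the lysosomal proteins SCARB2 (-1.52) and IFI30 (0.69) and the chaperone DNAJA4 (-0.87) passed. An unadjusted p under 0.05 was reached by 8 higher (4.44%) and 19 lower genes (10.6%), beside 7.25% and 6.75% of all genes. Benjamini-Hochberg adjustment passed 1 higher (0.556%) and 4 lower (2.22%), beside 1.63% and 1.31%. With the NRF2 and redox list, which answers oxidative stress, as an eleventh list, 1 of 197 genes was higher, AKR1C2, and 0 lower, with 5 and 5 by Benjamini-Hochberg adjustment. The 1 higher gene was TNRC6B, a partner of Argonaute proteins, at 0.45. The 4 lower ones were RSAD2 at -0.56 and RIGI at -0.39, an antiviral effector and an RNA sensor, and STARD4 at -0.55 and SQLE at -0.37, a sterol carrier and an enzyme of cholesterol synthesis. The difference of RSAD2 was the largest of the 180. RSAD2 stood at 5.73 in WT and 5.17 in SCR. List medians were -0.012 for interferon genes and -0.15 for cholesterol and fatty acid synthesis, beside -0.0014 over all genes. In simulated arrays of this size, 31 of 50 transcripts changed by 1 and 3 of 50 changed by 0.5 were recovered, so smaller changes were mostly not detectable.

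Of 23 further lists, 13 held 1 or 2 called genes and 10 held none. In the neuropilin, plexin, semaphorin and VEGF list, 1 of 31 rose, NRP1, and 1 fell, SEMA3A, a secreted semaphorin that binds NRP1. SEMA3A measured 4.99, 4.88 and 4.90 in WT and 3.99, 3.89 and 4.08 in SCR (a fall of 0.94, adjusted p = 0.0026), close to background. Its call was lost with only the compared groups in the fit, under the replicate block and under the methods' ANOVA with Bonferroni correction. EPHA7 was the 1 called of 21 Eph receptors and ephrins, and KIT of 22 genes of the KIT, PDGF and FGF receptor list. EPHA3 and KITLG, the ligand of KIT, differed by 0.54 (adjusted p = 1) and 0.53 (adjusted p = 0.19). CAMK4 was the 1 called of 14 calmodulin kinase genes, C1QL4 of 16 C1q-related genes, ELF5 of 19 ETS factors, ALDH1A1 of 26 aldehyde dehydrogenase and retinoid genes, BEX1 of 14 BEX and TCEAL genes and FOSL2 of 22 immediate early genes. Of 24 glutamate receptor and scaffold genes, LRRC7 rose and GRIN3A fell. These lists were written with the called genes known, so a call inside them is no separate evidence, and the medians of the 13 lay between -0.035 and 0.04.

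Over all 23 lists the medians lay between -0.085 and 0.046, with mitosis and DNA replication lowest. Of its 28 measured genes 0 passed by limma with Bonferroni adjustment and 1 was lower by Benjamini-Hochberg adjustment, beside 1.31% of all genes. At an unadjusted p under 0.05, 1 was higher and 9 were lower, beside 7.25% and 6.75% of all genes. The list mean lay between 9.49 and 9.53 in SCR and between 9.59 and 9.61 in WT arrays, so the groups did not overlap, and it was 9.66 to 9.75 in KD. Between SCR and WT, 18 of the 28 genes did not overlap, beside 25.5% of all genes.

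Of 17 androgen-driven genes measured, 1 rose by limma with Bonferroni adjustment, PLPP1, beside 0.276% of all genes. Benjamini-Hochberg adjustment passed 6 higher and 1 lower, beside 1.63% and 1.31% of all genes. KLK2, KLK3 and KLK4, kallikreins of the prostate, differed by 1.05, 0.60 and 0.69 (adjusted p = 0.11, 0.13 and 1 with Bonferroni). STEAP2 and the elongation factor ELL2 differed by 0.50 and 0.45, and ACP3, prostatic acid phosphatase, by -0.38. The list median was 0.04 with members on both sides, among them FKBP5 at -0.09 and TMPRSS2 at 0.14. Arrays did not overlap in 10 of the 17, beside 25.5% of all genes. The list mean was 7.96 to 7.98 in SCR against 7.74 to 7.77 in WT arrays. Of 17 NRF2 and redox genes AKR1C2 rose, Benjamini-Hochberg adjustment passed 4 higher and 1 lower, and AKR1C1, AKR1C3 and ME1, malic enzyme, differed by 0.78, 0.49 and 0.76. Among 8 genes of the SSX family and its partners, SSX3 differed by 0.61 (adjusted p = 0.17).

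Read from transcripts with 1 gene symbol, no marker of the cell types examined passed between the controls, apart from KRT7. The transcript shared by FOLH1, a luminal marker, and FOLH1B passed, at 0.92, and is not part of the list counts. Of 12 prostate luminal, 12 basal, 16 neuroendocrine, 14 fibroblast, 10 leukocyte and 11 endothelial markers, 0 passed. Their list means ranged over the arrays from 8.93 to 8.95 in SCR and 8.91 to 8.97 in WT for luminal markers, from 4.83 to 4.90 and 4.82 to 4.90 for leukocyte markers, and from 5.34 to 5.41 and 5.28 to 5.44 for endothelial markers. They were 6.63 to 6.71 and 6.65 to 6.72 for neuroendocrine and 5.37 to 5.39 and 5.38 to 5.45 for fibroblast markers. The basal list was the one of these without overlap, at 6.31 to 6.33 in SCR and 6.36 to 6.43 in WT. Of its 12 genes 2 were lower by Benjamini-Hochberg adjustment, beside 1.31% of all genes. Luminal keratins KRT8 and KRT18 were bright in both, at 11.3 and 11 in WT. An unadjusted p under 0.05 was reached by 7 luminal (2 higher, 5 lower), 3 basal, 3 neuroendocrine, 3 fibroblast, 0 leukocyte and 0 endothelial markers, beside 14% of all genes. The luminal share, 7 of 12, was thus above that of all genes. CD44 and ITGA6 of the basal list differed by -0.41 and -0.39, and CDH1, E-cadherin, by -0.38. Of 23 markers of androgen receptor negative prostate lines, KRT7 rose and the median difference was 0.0015.

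**Figure D3:**
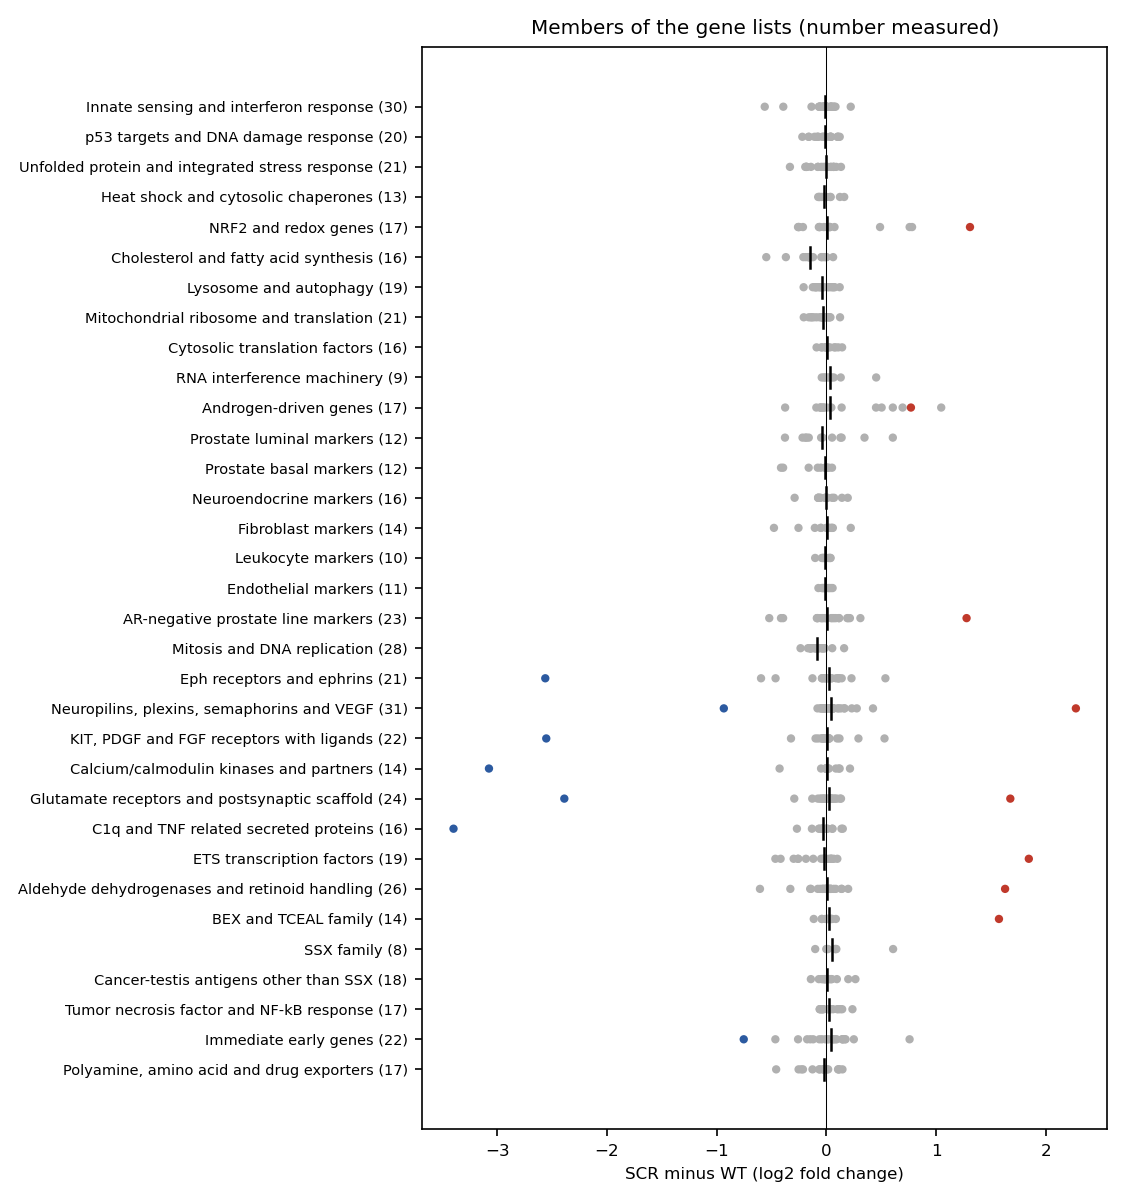
Difference between SCR and WT (log2 fold change) for the measured members of 33 gene lists, 1 point per gene, with rises in red, falls in blue, genes that did not pass in grey and the list median as a black bar. List medians lie between -0.15 and 0.046. Coloured points, 1 or 2 a list, are found in 13 lists and in none of the 10 transfection-related ones.

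Called genes were spread over 21 chromosomes. Chromosome medians of the difference, over genes with a level of at least 7, lay between -0.022 and 0.024. Chromosome 9 held 10 called genes of 825 (1.21%) and chromosome 19 held 2 of 1451 (0.138%). These were the highest and lowest shares among chromosomes with a called gene. Of all genes, 0.276% were higher and 0.174% lower. Whether the shares differ was not tested. In the order of RefSeq genes, 10 pairs of called genes lay within 5 places of each other, and in each the direction was the same. On chromosome 1, PIGR, C1orf116 and PFKFB2 rose by 1.11, 0.75 and 0.63, and PLPP3 lay near FYB2. PATL2 and B2M, adjacent on chromosome 15, rose by 0.81 and 0.76. KCNA4 and FSHB, adjacent on chromosome 11, fell by 1.39 and 0.76. CNTFR and GALT, the galactose enzyme, and PRUNE2 and VPS13A rose as pairs on chromosome 9, STEAP1 and CFAP69 on chromosome 7 and AJUBA and CDH24 on chromosome 14, while PTPRZ1 and CADPS2 fell on chromosome 7. Without 1 array, FYB2 and CADPS2 lost their calls whichever was left out, VPS13A for all but WT 2, CFAP69 for all but KD 3 and WT 2, and C1orf116 for any SCR array, WT 2 or WT 3. Whether more neighbours were called than their number gives by chance was not tested.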

How the data were processed

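Biotin-labelled cDNA of total RNA from 3 KD, 3 SCR and 3 WT samples was read on Affymetrix Human Transcriptome Array 2.0 chips. RMA, run by the authors, gave the deposited log2 intensity values, and the submitters' processing notes name Expression Console and Transcriptome Analysis Console 3.0. The genome build behind the transcript clusters was not stated in the sources read. The value table holds 70523 probe sets, of which 67528 transcript clusters were tested and 2995 control or other sets were left out. Of these, 23781 carry 1 gene symbol in the platform annotation, 1543 carry several and 42204 carry none. Gene identifiers of 20299 genes matched RefSeq (GRCh38.p14), which gave chromosomes, gene order and promoters.

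Differences were fitted with limma 3.58.1 in R 4.3.3, with 1 mean per group over all 9 arrays and default eBayes moderation (degrees of freedom 6 residual, 3.34 prior), on the deposited values with no further transformation. The median SE of a difference was 0.07. A transcript passed at a two-sided Bonferroni-adjusted p under 0.05. The study's methods name this correction after a one-way ANOVA, which was run as an alternative on the compared groups. Position of KD was read from its tests against SCR and WT. Each gene of a list is read from its brightest transcript with that symbol alone. No set test was made. Tested on simulated data of this size, limma recovered 3, 31, 46 and 50 of 50 transcripts changed by 0.5, 1, 2 and 4 on the log2 scale, with 0 false calls among 67528 (3537 at an unadjusted p under 0.05).

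Genes were named by a rule: the 15 largest rises and falls with 1 symbol and no overlap of arrays, the 2 largest in each direction that passed in each of 33 lists, SSX2 and a few members. Genes outside it were chosen after their values were seen, and not every one is marked where it appears. The members and lists were chosen with earlier results of these data known. Array numbers shared by SCR and WT did not pair the samples (correlations of deviations 0.0098, 0.055 and -0.017). Some genes of the lists were not analysed here.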

Additional observations from a re-analysis of the deposited data

How the results depend on the processing

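The main counts were 95 higher and 50 lower transcripts in SCR, of which KD was counted with SCR in 33, with WT in 33 and apart from both in 76. In this order, Benjamini-Hochberg adjustment gave 747, 479, 142, 128 and 948. A minimum of 2-fold gave 42, 26, 21, 19 and 28, and of 5-fold 0, 5, 3, 0 and 2. The methods' ANOVA with Bonferroni correction, which takes the spread from the 6 compared arrays alone, gave 2, 6, 3, 0 and 1, and with Benjamini-Hochberg 284 higher, 196 lower and 375 apart. With only the compared groups in the fit, 49 were higher, 31 lower and 24 apart. KD was apart in 116 without dim transcripts (35867 kept) and in 119 with a trended, robust variance. Among transcripts with 1 symbol alone, where fewer tests are corrected for, 80 were lower and 135 apart. The replicate block, which takes the array number as a pair although the numbers do not pair samples, gave 47 higher, 31 lower and 27 apart, with 76 of its 78 calls among the 145. Without 1 array, 49 to 70 were higher, 31 to 45 lower, 24 to 29 with SCR, 18 to 29 with WT and 26 to 50 apart. Centring (147 called, 139 of them shared) and quantile normalization (144, 136 shared) kept all 5 counts within 1.5 times. The brighter SSX2 transcript, not called, changed sign under quantile normalization, to -0.034.

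Of the 145 transcripts, 71 lost their call without at least 1 array. Of the 34 named by the rule these were 6, with differences of 1.56 to 1.59 for BMP2, -1.20 to -1.14 for HEG1, -0.78 to -0.72 for FOSL2, 0.76 to 0.78 for PLPP1, 1.27 to 1.31 for AKR1C2 and -1.40 to -1.34 for KCNA4. Under the methods' ANOVA with Bonferroni correction NRP1, CAMK4, EPHA7, GRIN3A, CPLX2 and PLPP1 kept their calls, and the other 28 of the 34, C1QL4 and KIT among them, lost theirs. With 3 technical replicates a group, changes under about 1 on the log2 scale were often not detectable, and levels near background limit fold changes of dim genes.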
